A study of Mus musculus with 4 samples.

Results

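The genes described here mark the ends of the epithelial-mesenchymal axis in mouse pancreatic ductal adenocarcinoma: the keratins Krt7, Krt8, Krt18 and Krt19, the adhesion proteins Epcam and Cdh1, and the mesenchymal genes Vim, Cdh2, Zeb1 and Zeb2. They are 10 of the 32285 genes in the deposited tables, taken by exact match of the gene symbol, and each matched 1 row. They were read in Ptprc-negative cells, Ptprc (CD45) being the surface marker of leukocytes, with at least 5000 UMIs, a UMI being 1 counted RNA molecule. The joint distribution of keratin and Vim, and the cells between its ends, were described after a doublet check.

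Single-cell RNA was measured with the 10x Genomics droplet method in 4 libraries, 1 for each treatment group, from tumour pieces of 3 animals pooled per group and dissociated with enzymes. The control group received PBS, the PH group paricalcitol (an agonist of the vitamin D receptor) with hydroxychloroquine (an inhibitor of lysosomal degradation), and the G group gemcitabine (a nucleoside analogue used as chemotherapy). The GPH group is taken from its title, whose letters the series uses for gemcitabine, paricalcitol and hydroxychloroquine; its treatment label writes GnP-H, gives G at 60 mg/kg by the intraperitoneal route and breaks off there. The series set out to examine how paricalcitol and hydroxychloroquine bear on the response to gemcitabine. The labels give no strain, age, tumour model or treatment time. With 1 library a group and no label that ties a cell to an animal, no difference between groups can be tested: treatment, animals and library cannot be told apart. Intervals below are exact 95% intervals (Poisson for levels, Clopper-Pearson for shares, conditional binomial for ratios) and cover counting error only.

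Keratins are the intermediate filaments of epithelial cells. Krt8 pairs with Krt18, and Krt7 and Krt19 are typical of ducts. Cdh1 encodes E-cadherin, the adhesion protein that holds epithelial cells together, and Epcam a second adhesion protein of simple epithelia. In epithelial-mesenchymal transition cells lose these proteins and gain vimentin (Vim), the filament of mesenchymal cells, and N-cadherin (Cdh2). Zeb1 and Zeb2 are transcription factors that repress Cdh1 and other epithelial genes by binding the E-box CACCTG in their promoters. Cells that hold epithelial and mesenchymal genes together are called hybrid or partial states.

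Krt7, Krt8 and Krt18 lie on chromosome 15 (GRCm38, GENCODE vM21) at 101411043 to 101430313, 101996698 to 102004482 and 102028180 to 102032027. Krt8 and Krt18 are transcribed away from each other, with start sites 23698 bases apart. Krt19 lies on chromosome 11 (100140810 to 100148665), Epcam on chromosome 17 (87635979 to 87651129), Cdh1 on chromosome 8 (106603351 to 106670246), and Vim and Zeb2 on chromosome 2 (13573927 to 13582826 and 44983632 to 45117395). Genes on the opposite strand in the same tables overlap Krt7 (Gm671), Krt8 (Gm36026), Cdh2 (Gm15485), Zeb1 (Gm10125) and Zeb2 (Zeb2os). Whether the counting used strand is not given in the sources used here, and without strand the reads of such a pair cannot be told apart.

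RefSeq promoter sequence (GRCm38.p6) was available for 6 of the 10 genes, as 9 entries, and the 250 bases before each start were searched for CACCTG and its reverse complement CAGGTG. The genes with a match included Krt7, Krt18 and Epcam, and the windows of Vim and the 4 Zeb2 entries held none. The Vim window (chr2:13574061-13574310) lies inside the GENCODE span of Vim, and the windows of Zeb2 entries 2, 3 and 4 inside that of Zeb2. They are therefore not upstream of the GENCODE start of the gene. Of 32851 promoters in the same source, 5657 (17.2%) held the motif or its reverse complement. Matches of 3 epithelial genes read throughout the results are printed. Capitals mark the motif.
Krt18, chr15:102027966-102028179, plus strand, motif from base -214: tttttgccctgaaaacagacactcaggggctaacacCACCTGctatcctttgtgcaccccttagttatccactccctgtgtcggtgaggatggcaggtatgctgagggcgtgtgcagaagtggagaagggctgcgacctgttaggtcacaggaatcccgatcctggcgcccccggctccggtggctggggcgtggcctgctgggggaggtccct
Krt7, chr15:101412347-101412376, plus strand, motif from base -44: ccgccctgtcccCACCTGtgtgcgctcagc
Epcam, chr17:87635729-87635978, plus strand, motif from bases -187 and -19: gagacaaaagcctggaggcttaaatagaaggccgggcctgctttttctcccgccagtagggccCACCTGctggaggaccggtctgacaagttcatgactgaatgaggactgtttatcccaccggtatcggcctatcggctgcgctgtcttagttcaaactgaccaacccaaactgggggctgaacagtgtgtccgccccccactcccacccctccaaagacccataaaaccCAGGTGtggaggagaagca
The Krt7 stretch lies inside a GENCODE exon of the same gene, so only 30 bases of it are given. A match of letters is a description of the sequence and does not show that a factor binds there.

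The deposited tables held 13120, 18589, 16748 and 7918 barcodes in control, PH, G and GPH. Of those with at least 5000 UMIs and at most 20% mitochondrial UMIs, the share with 0 Ptprc UMIs was 92.6%, 93.8%, 44.5% and 98.0%. After removal of the highest doublet scores, 7267, 9402, 2925 and 3482 cells were used, with median depths of 12293, 10512, 17353 and 28947.5 UMIs and 65033694 to 126943320 UMIs in all. Libraries shared at most 22 cell barcodes among the cells used, at most 0.303% of the smaller library. The label "tumour" was checked against marker lists. Cdkn2a, a tumour suppressor, was read in the cells of all 4 libraries at 12.04, 11.3, 5.45 and 4.16 UMIs per 10000. Fibroblast markers (Dcn, Dpt, Col1a1, Col3a1, Pdgfra, Lum) summed to 7.01, 4.61, 3.14 and 3.43 per 10000, and 17.1%, 6.87%, 8.68% and 13.2% of cells held at least 3 of the 6. Macrophage markers summed to 0.792, 0.689, 2.87 and 0.0563, and acinar markers reached 2.05 in G and 1.39 in GPH. Of the 11 ductal markers none was at 0 UMIs in any library, but Tff1, a secreted protein of gastric-type epithelium, was at 0.0108 and 0.000394 per 10000 in control and PH against 17.2 and 17.7 in G and GPH. The groups also stood apart in 4 Y-linked genes (Kdm5d, Uty, Eif2s3y and Ddx3y), which summed to 0.000853 and 0.00496 per 10000 in control and PH and to 0.223 and 0.314 in G and GPH. Xist was at 0.0398, 0.0659, 0.211 and 0.0422. The part of other cell types, depth and animals in the results was not tested.

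**Figure D1:**
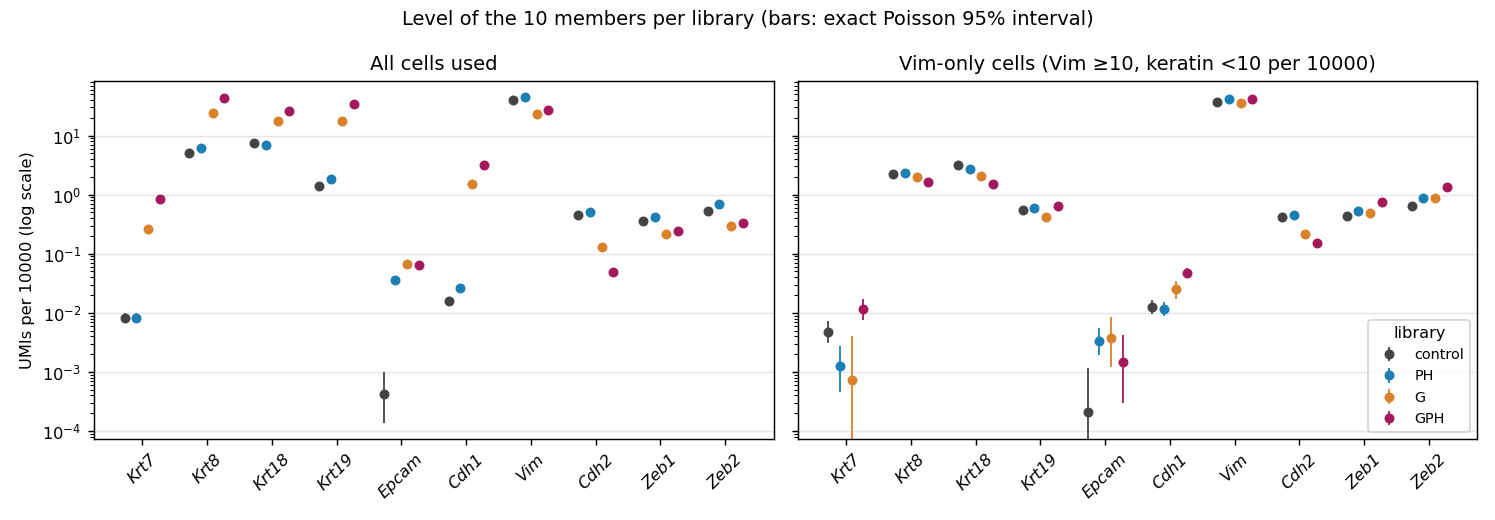
UMIs per 10000 (log scale) of each of the 10 genes in the 4 libraries, in all cells used (left) and in Vim-only cells (right); points are summed levels and bars exact 95% Poisson intervals. In all cells the keratins and Cdh1 were highest in GPH and G; within Vim-only cells the 4 libraries lay closer, with Cdh2 lowest and Zeb1 and Zeb2 highest in GPH.

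Taken over all cells, the keratins were low in control and PH and higher in G and GPH. The level of Krt8 was 5.08 UMIs per 10000 for control, 6.26 for PH, 23.9 for G and 43.9 for GPH. Krt18 was at 7.37, 6.99, 17.3 and 26.0, and Krt19 at 1.38, 1.83, 17.7 and 34.3 in the same order. GPH stood highest and G second for each, and control and PH lay side by side. Krt7 was scarce everywhere, at 0.00827, 0.00811, 0.261 and 0.842 per 10000. Krt19 thus made up 10.0% and 12.1% of the UMIs of the 4 keratins in control and PH but 29.9% and 32.7% in G and GPH, and Krt18 53.2%, 46.3%, 29.2% and 24.8%. The share of Krt8 was 36.7%, 41.5%, 40.4% and 41.8%, and that of Krt7 at most 0.802%. The 2 pairs of libraries therefore differed in which keratin was read and not only in how much.

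Cdh1 followed the keratins. Its level was 0.0161 per 10000 (interval 0.0139 to 0.0186) for control, 0.0264 for PH, 1.49 for G and 3.14 for GPH. At an equal 5000 UMIs a cell, 0.839%, 1.12%, 26.7% and 46.8% of cells held a Cdh1 UMI. Epcam did not follow them: its UMIs over all cells numbered 5 for control, 457 for PH, 440 for G and 770 for GPH, or 0.000426, 0.0360, 0.0677 and 0.0649 per 10000.

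The summed levels of the mesenchymal genes were lower in G and GPH than in control and PH. Vim was at 39.2, 44.2, 23.2 and 27.2 per 10000, and was read in at least 98.7% of cells of every library at 5000 UMIs. Cdh2 was at 0.447, 0.504, 0.130 and 0.0489 per 10000. Zeb1 was at 0.356, 0.415, 0.215 and 0.239, and Zeb2 at 0.524, 0.681, 0.295 and 0.327. PH was highest for all 4, and G lowest for Vim, Zeb1 and Zeb2, while Cdh2 was lowest in GPH.

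Ratios were read against a fold of 1.5 in either direction, among genes with at least 20 CPM (counts scaled to a common library total) and 20 UMIs over both libraries. A gene read mainly in the library where it is high reaches that minimum through that library, so the counts describe these genes and support nothing further. Between PH and control, none of the 7 measured members passed 1.5-fold, where 12.7% of 4252 genes did. The ratios ran from 0.949 (Krt18) to 1.32 (Krt19). Between G and control all 8 measured members passed. Higher were 4 epithelial genes, Krt8 4.71-fold (4.66 to 4.75), Krt18 2.35-fold, Krt19 12.8-fold and Cdh1 92.7-fold (80.3 to 108), where 12.1% of genes were. The other 4 were lower, Vim 1.69-fold, Cdh2 3.44-fold (3.20 to 3.70), Zeb1 1.66-fold and Zeb2 1.77-fold, where 19.7% were. With each cell weighted equally, 1 of those 4 passed 1.5-fold on the lower side: Vim was at -0.54, Zeb1 at -0.41 and Zeb2 at -0.14 on the log2 scale, and Cdh2 at -1.45.

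Between GPH and control, 5 of 9 measured members were higher, where 28.3% of genes were: Krt7 102-fold (83.4 to 126), Krt8 8.64-fold, Krt18 3.53-fold, Krt19 24.8-fold and Cdh1 195-fold (169 to 226). Past 1.5-fold on the lower side were Cdh2 (9.14-fold, 8.39 to 9.98) and Zeb2 (0.625 of the control level), where 16.7% of genes were. With each cell weighted equally, rather than by its UMIs, the Zeb2 and Zeb1 ratios of GPH to control turned: Zeb2 was at 0.29 and Zeb1 at 0.18 on the log2 scale toward GPH. Vim (1.44-fold) and Zeb1 (1.49-fold) lay just under the threshold on the lower side. GPH against G gave 5 of 8 members higher, where 20.8% of genes were, and none lower, where 4% were: Krt7 3.23-fold, Krt8 1.84-fold, Krt18 1.51-fold, Krt19 1.94-fold and Cdh1 2.10-fold (2.06 to 2.15). All measured genes together were shifted by 0.25 on the log2 scale in that comparison, and relative to that shift Krt18 did not pass. These comparisons share the control library or the GPH and G libraries and are not independent of each other.

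The joint distribution of keratin and Vim shows what these averages hold. For it every cell was thinned at random to 5000 UMIs, and the keratin level is the sum of Krt7, Krt8, Krt18 and Krt19 UMIs per 10000. In control and PH the cells formed 1 cloud, with a median keratin level of 10 in each and a median Vim level of 36 and 38. The 90th percentile of keratin was 28 and 30. In G and GPH a second cloud lay at high keratin: the median keratin level was 18 and 68, its 90th percentile 122 and 180, and the median Vim level 22 and 24. Over all cells the Spearman correlation of keratin with Vim was 0.18 over 7267 control cells, 0.19 over 9402 PH cells, -0.37 over 2925 G cells and -0.28 over 3482 GPH cells. Both values of a cell come from the same 5000 UMIs, so these are descriptions only.

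**Figure D2:**
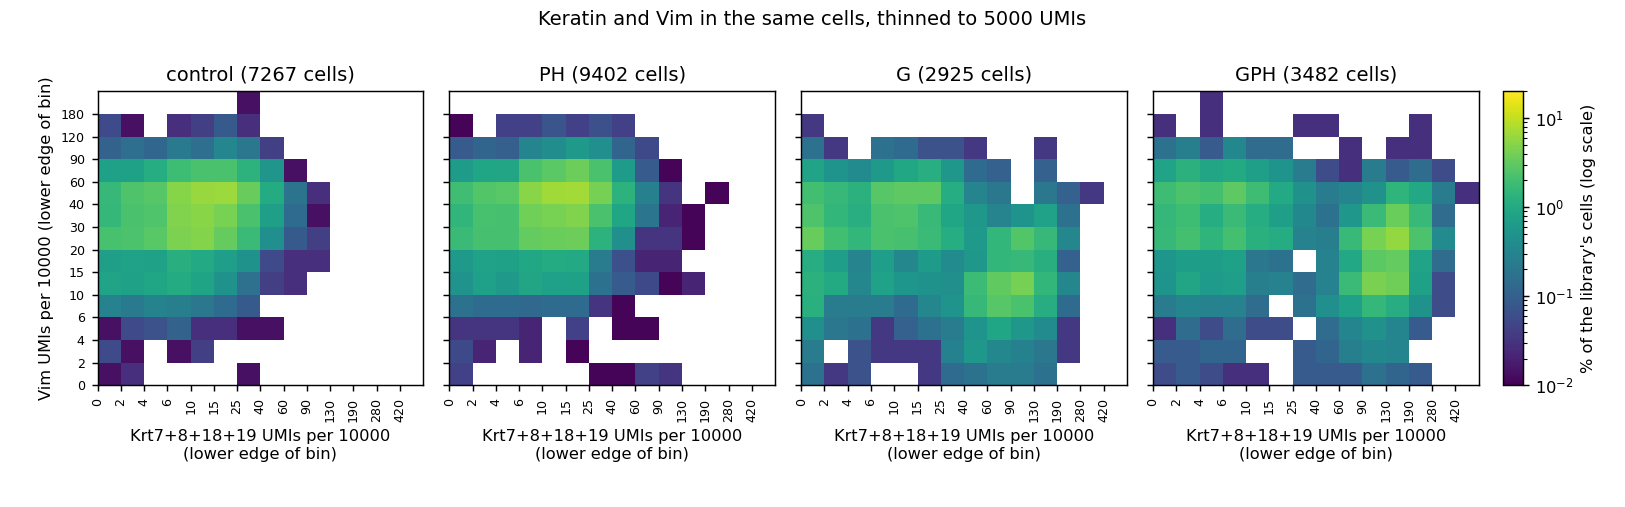
Share of each library's cells (colour, log scale) by keratin level (x axis, UMIs per 10000) and Vim level (y axis, UMIs per 10000), with unequal bins labelled by their lower edge. Control and PH hold 1 cloud around keratin 10 and Vim 36 to 38; G and GPH hold a second one at keratin above 50, at lower Vim.

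With high taken as 10 per 10000 for keratin and for Vim, cells high for both made up 51.3% of control cells (50.2 to 52.5), 56.2% of PH cells, 49.0% of G cells (47.1 to 50.8) and 56.9% of GPH cells. Vim-only cells made up 46.7%, 42.5%, 33.1% and 33.0%, and keratin-only cells 0.564%, 0.489%, 14.5% and 8.01%. That threshold crossed the middle of the control cloud, where 23.8% of cells lay within 8 to 12 per 10000 of keratin. Cells high for both were thus different cells in different libraries. Bands chosen after the distribution was seen separate them: keratin-poor under 10, keratin-mid from 10 to under 50, and keratin-rich at 50 or more. Between 40 and 60 lay 2.86%, 3.71%, 7.45% and 2.41% of cells. In GPH cells were few there, at 1.15% from 30 to 40, 0.890% from 40 to 50 and 4.16% in the wider bin from 50 to 75. In G the same bins held 3.62%, 3.76% and 8.99%, so 50 marks no gap in G. In control and PH it lay in the upper tail of their 1 cloud.

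Of the cells high for both, 3624 in control and 5106 in PH were keratin-mid and 106 and 180 keratin-rich. In G the split was 737 and 695, and in GPH 398 and 1582. Keratin-rich cells made up 1.46% of control (106 cells, 1.196 to 1.76), 2.01% of PH (189 cells, 1.74 to 2.31), 34.8% of G (1019 cells, 33.1 to 36.6) and 52.4% of GPH (1826 cells, 50.8 to 54.1). The order of GPH, then G, then PH and control held in 13 of 13 alternative settings, while the shares moved. From 2000 UMIs they were 25.8% in G and 49.1% in GPH, and from 10000 UMIs 45.6% and 59.6%. With doublet removal at 1.6% per 1000 barcodes they were 29.4% and 51.4%, and with Krt19 alone 6.39% and 21.3%. Requiring 0 Ptprc UMIs left out 89 keratin-rich cells of G (8.03%), 33 of GPH (1.78%) and 2 each of control and PH.

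Keratin-rich cells differed between the libraries in the genes that the bands did not use. In G and GPH they held Cdh1 at 2.59 and 4.203 per 10000, with a UMI in 66.4% and 84.6% of cells, against 0.0159 and 0.338 (1.89% and 5.82% of cells) in control and PH. The PH value came largely from 9 cells with Vim under 10, which held Cdh1 at 4.73 and Epcam at 20.8 per 10000 and were 7 of the 11 cells with Cdh1; those with Vim of 10 to 50 and of 50 or more held Cdh1 at 0.0812 and 0.0603. Zeb2 was at 0.0174 and 0.0131 in G and GPH and 0.391 and 0.349 in control and PH. Cdh2 was at 0.0220 and 0.0109 against 0.492 and 0.586. The 106 keratin-rich cells of control were therefore low in Cdh1 and read Cdh2 and Zeb2. Of the 11 ductal markers, 4 were at 0 UMIs in them (Epcam, Cldn4, Cldn7 and Tff1), and the others were read. Epcam, Cldn4 and Cldn7 were also scarce in G and GPH outside the 19 and 40 Epcam cells described below. Over all other cells they were at 0.0142, 0.00248 and 0.00170 per 10000 in G and 0.0103, 0.000848 and 0.000848 in GPH. A count of 0 for these genes thus does not by itself set the control cells apart. S100a4, a calcium-binding protein typical of motile and mesenchymal cells, was at 74.1 and 76.1 per 10000 in keratin-rich cells of control and PH and at 1.43 and 0.483 in those of G and GPH. Their keratin also differed in kind, with Krt19 at 7.34% and 14.7% of keratin UMIs in control and PH and 32.1% and 33.0% in G and GPH.

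Epcam came from few cells. Cells with at least 2 Epcam UMIs of 5000, a limit set after the values were seen, were 0 for control, 13 for PH, 19 for G and 40 for GPH, and held 94.1%, 79.1% and 84.2% of all Epcam UMIs in PH, G and GPH. Xist was read in 13 of 13, 8 of 19 and 27 of 40 of them, against 1.11%, 6.29% and 0.503% of the other keratin-rich cells. The 13 cells of PH were led by intestinal genes: Reg3b, an antimicrobial lectin, was at 134 per 10000 and Fabp1, a fatty acid carrier, at 94.4, with Cdkn2a at 0.870 against 11.4 in the other cells. Their median Vim level was 0. Without such cells, keratin-rich cells held Epcam at 0.00828 per 10000 in PH, 0.0211 in G (0.0164 to 0.0267) and 0.0137 in GPH (0.0114 to 0.0164). The T cells of the same libraries, thinned to 2000 UMIs, held Epcam at 0.133, 0.201 and 0.256 per 10000. Those of control held it at 0.0831, on 5 UMIs, against 5 UMIs in all cells used of control. T cells were also shallower, at median depths of 3990 to 4730 UMIs. Keratin-rich cells of PH, G and GPH had 10878, 29797 and 45009.5. The T cell values therefore give no background level for the Epcam of keratin-rich cells. Outside the cells with at least 2 Epcam UMIs, keratin-rich cells of G and GPH read Cdh1 with almost no Epcam.

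Free RNA was set beside the keratin of keratin-poor cells in the same way. T cells held 1.43, 1.12, 1.64 and 7.69 keratin UMIs per 10000 in control, PH, G and GPH (301, 263, 2861 and 39 cells), and keratin-poor cells 4.95, 4.94, 3.47 and 3.73. In GPH the level in keratin-poor cells was not above that in T cells, which rests on 60 UMIs in 39 cells, so no keratin expression is read from it. In control, PH and G it was above that in T cells. Median depths before thinning were 3990 to 4730 UMIs in T cells and 9257 to 13774 in keratin-poor cells.

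Vim-only cells gave a comparison over cells of like keratin and Vim, though the libraries stood apart in them too. The Y-linked genes summed to 0.000629, 0.00716, 0.112 and 0.150 per 10000 in Vim-only cells of control, PH, G and GPH. The part of that difference in the ratios of these cells was not tested. Krt8 was at 2.22, 2.29, 2.004 and 1.66 per 10000 in control, PH, G and GPH, and Krt18 at 3.19, 2.72, 2.09 and 1.51. Cdh2 was at 0.413, 0.448, 0.216 and 0.150. Cdh2 thus kept the order of all cells, highest in PH and lowest in GPH. Zeb1 was at 0.442, 0.533, 0.487 and 0.736, and Zeb2 at 0.632, 0.892, 0.877 and 1.34, so both stood highest in GPH. Summed over all cells, both were higher in control and PH than in GPH. With each cell weighted equally, however, both were higher in GPH than in control over all cells too, as given above.

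The keratins and Vim chose the Vim-only cells, so their own ratios, and the counts of members that include them, are a description. Cdh2, Zeb1 and Zeb2 were not used for that choice. Among Vim-only cells none of 7 measured members passed 1.5-fold between PH and control, where 14.3% of genes did. In G against control 2 of 7 were lower, Krt18 1.53-fold (1.47 to 1.59) and Cdh2 1.91-fold (1.69 to 2.17), where 8.86% of genes were, and none was higher, where 5.83% were. The Krt18 call was lost under 4 settings, at -0.55 on the log2 scale with median scaling, -0.58 with no mitochondrial limit, -0.51 without cells holding any of 7 leukocyte, endothelial and Xist genes, and -0.35 at 20 per 10000. In GPH against control Zeb1 was 1.67-fold (1.56 to 1.78) and Zeb2 2.12-fold (2.01 to 2.23) higher, 2 of 7 members where 22.2% of genes were. Fibroblast markers were also higher there, at 15.8 per 10000 with 3 markers in 33.8% of cells, against 10.4 and 25.6% in control, and pericyte markers at 0.290 against 0.144. Their part in the Zeb ratios was not tested. Krt18 was 2.11-fold and Cdh2 2.75-fold (2.44 to 3.12) lower, 2 of 7 where 10.5% were. GPH against G gave Krt19, Zeb1 and Zeb2 higher by 1.53-fold, 1.51-fold and 1.53-fold, 3 of 6 members where 23.3% were, and none was lower, where 6.46% were. All measured genes were shifted by 0.26 on the log2 scale toward GPH in that comparison, and relative to that shift none of the 3 passed. The Vim-only cells of G also held Lyz2, a macrophage gene, at 4.38 per 10000 and Xist at 0.586, against 0.0179 and 0.0281 in GPH, and the part of those cells was not tested.

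Within the Vim-high cells of each library Zeb1 and Zeb2 were higher where keratin was lower. Cells with 10 or more Vim UMIs per 10000 and keratin under 2 numbered 569, 653, 330 and 251 in control, PH, G and GPH, and those with keratin of 20 to 50 numbered 1478, 2296, 324 and 129. Zeb1 was at 0.553, 0.652, 0.634 and 0.795 per 10000 at the low end and at 0.245, 0.309, 0.247 and 0.383 at the high end. The ratio was 2.25 (1.97 to 2.57), 2.11 (1.88 to 2.36), 2.56 (2.11 to 3.12) and 2.07 (1.69 to 2.56). Zeb2 gave 1.98, 2.42, 3.82 and 2.68, and Fn1, encoding the matrix protein fibronectin, 2.88, 2.86, 5.52 and 2.71.

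Cdh2 and S100a4 ran the other way in those cells. Cdh2 was higher at the high-keratin end by 1.23-fold (1.07 to 1.41), 1.36-fold, 1.56-fold and 1.31-fold (0.905 to 1.89), the last with an interval that includes 1. S100a4 was higher there by 1.87-fold, 2.02-fold, 1.35-fold and 1.70-fold. The mesenchymal genes thus did not move together along keratin in Vim-high cells. Dcn, a fibroblast marker, was 7.68-fold, 16.3-fold, 24.8-fold and 3.77-fold higher at the low-keratin end. The low-keratin end also held fewer UMIs a cell, with a median of 8600 against 15304 in control. Of all cells of G, those with keratin under 2 held Lyz2 at 13.2 and Xist at 1.94 per 10000, against 0.205 and 0.0133 at keratin 20 to 30. Leaving out cells with a UMI of 7 leukocyte, endothelial and Xist genes gave Zeb1 ratios of 2.03 to 2.81 and Zeb2 ratios of 1.77 to 3.09. Among cells of 10000 to 15000 UMIs, Zeb1 kept its direction in 3 libraries and turned in GPH (ratio 0.836, 68 against 29 cells), while Zeb2 stayed at 1.50 to 2.98.

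**Figure D3:**
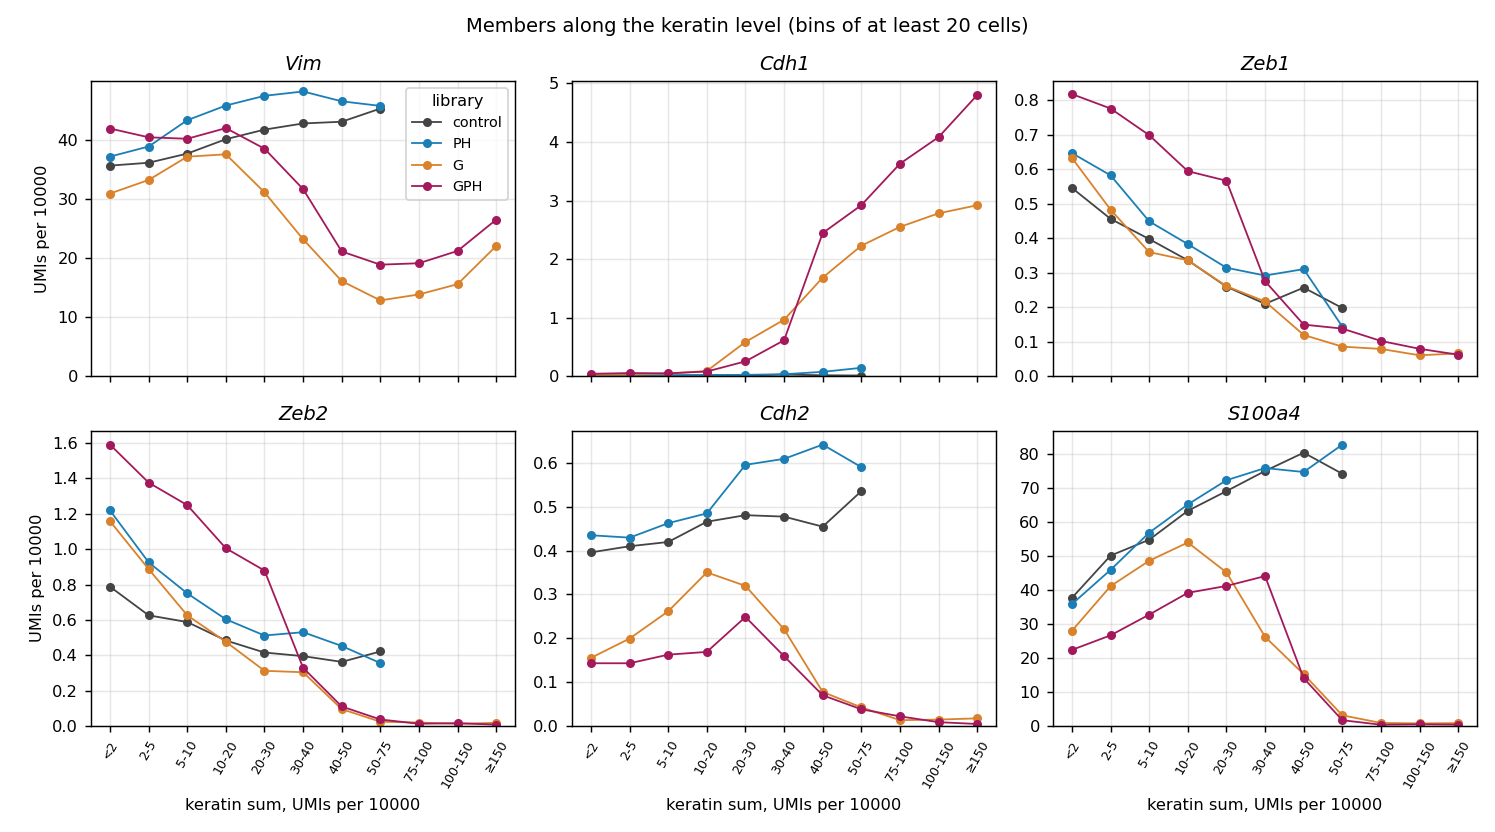
Summed level (y axis, UMIs per 10000) of Vim, Cdh1, Zeb1, Zeb2, Cdh2 and S100a4 in bins of the keratin level (x axis) for each library, with bins of at least 20 cells. Zeb1 and Zeb2 were lower at keratin 50 to 75 than under 2 in each library. In G and GPH Cdh1 was higher and S100a4, Cdh2 and Zeb2 lower at keratin 50 to 75 than at 20 to 30.

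Across the keratin bins of G and GPH the members changed over within keratin 20 to 75. In G, S100a4 was at 45.1 per 10000 in cells of keratin 20 to 30, 26.2 at 30 to 40, 15.2 at 40 to 50 and 3.11 at 50 to 75. Cdh1 was at 0.586, 0.966, 1.68 and 2.23 in the same bins. In GPH S100a4 was at 41.2, 44.0, 14.0 and 1.67, and Cdh1 at 0.254, 0.615, 2.45 and 2.92. A bin average cannot tell cells that hold both genes from a mixture of cells that hold either, so such cells were counted singly.

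The keratin-mid band as a whole, from 10 to under 50, differed between G and GPH in the genes of both ends. Zeb1 was at 0.255 per 10000 in G and 0.513 in GPH, and Zeb2 at 0.332 and 0.825, or 2.01-fold (1.77 to 2.29) and 2.48-fold (2.23 to 2.77) higher in GPH. Cdh1 was at 0.674 and 0.408 and Cdh2 at 0.265 and 0.172, so that both were lower in GPH by 1.65-fold and 1.54-fold. These were 2 of 8 measured members higher, where 25% of genes were, and 2 of 8 lower, where 8.75% were. All measured genes were shifted by 0.22 on the log2 scale toward GPH. The keratins chose this band, so counts of members that include them are a description.

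Of the 413 cells of G with keratin of 20 to 50, 76 (18.4%, 14.8 to 22.5) held a Cdh1 UMI with S100a4 under 10 per 10000, and 255 (61.7%, 56.9 to 66.5) held S100a4 of 10 or more and no Cdh1. Both were found in 4 cells (0.969%, 0.265 to 2.46), and neither in 78. In GPH 31 of 154 cells (20.1%) held Cdh1 alone, 98 (63.6%) S100a4 alone, 4 (2.60%, 0.712 to 6.52) both, and 21 neither. Most cells of intermediate keratin in G and GPH were thus counted for 1 gene only at these limits. In control 1429 of 1492 cells (95.8%) and in PH 2249 of 2311 (97.3%) held S100a4 alone, and Cdh1 alone was found in 0 and 2. At 5000 UMIs a Cdh1 molecule can be missed, since a UMI was read in 66.4% of G keratin-rich cells, which held more of it. The counts with Cdh1 are therefore lower limits, and a cell holding both can be counted as S100a4 alone. S100a4 was chosen after its values were seen and correlated with the keratin sum at -0.56 in G and -0.74 in GPH. The counts thus do not show that cells holding both are rare.

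**Figure D4:**
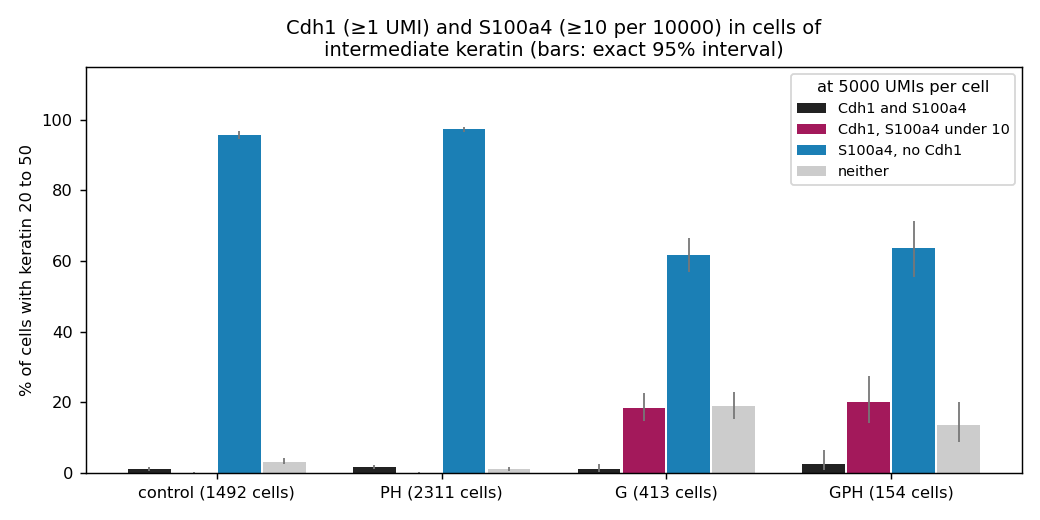
Share of cells with a keratin level of 20 to 50 per 10000 (y axis, %) that held a Cdh1 UMI, S100a4 of at least 10 per 10000, both or neither, in each library; bars are shares and lines exact 95% intervals. Both genes were read in 0.969% of these cells in G and 2.60% in GPH, as lower limits. S100a4 with no Cdh1 UMI was the most common count in all 4 libraries.

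A different kind of overlap was seen in the keratin-rich cells themselves, which kept Vim. Vim was at 15.2 per 10000 in keratin-rich cells of G and 22.7 in those of GPH, which is 42.7% (42.2 to 43.3) and 54.3% (53.8 to 54.7) of its level in the Vim-only cells of the same library. The 9 other genes read were at lower shares, the nearest being Cdkn2a at 25.0% and 36.8%. Zeb1 was at 15.0% and 10.95% of its Vim-only level, Cdh2 at 10.2% and 7.24%, Fn1 at 5.32% and 3.49%, S100a4 at 3.50% and 1.72%, Zeb2 at 1.99% and 0.982%, and Dcn at 0.200% and 0.259%. Vim was read in 98.0% and 99.1% of the keratin-rich cells. The part of RNA carried over from other cells was not tested. These genes, other than the members, were chosen after their values were seen, so Vim ranks first among these genes only. In keratin-rich cells of GPH, 14 of 15 measured mesenchymal effectors and 7 of 8 mesenchymal regulators of the lists below were 1.5-fold lower than in Vim-only cells. The other gene of each list was not, and so kept a larger share than Vim. In G all 16 and all 7 measured were lower.

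**Figure D5:**
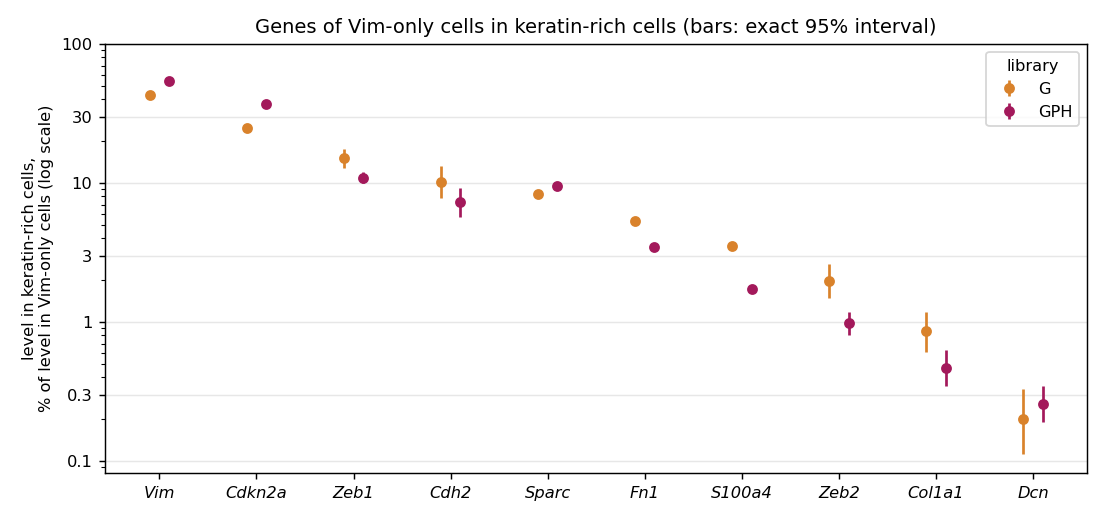
Level in keratin-rich cells as a percentage of the level in Vim-only cells of the same library (y axis, log scale) for Vim and 9 other genes in G and GPH; bars are exact 95% intervals. Vim stood at 42.7% in G and 54.3% in GPH, above each of the other 9, and Dcn lowest at 0.200% and 0.259%.

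Within keratin-rich cells of G and GPH, Vim was higher where keratin was highest. From keratin of 50 to 75 to keratin of 150 or more, Vim went from 12.8 to 22.0 per 10000 in G and from 18.9 to 26.5 in GPH, while Cdh1 went from 2.23 to 2.92 and from 2.92 to 4.80. The Spearman correlation of keratin with Vim among keratin-rich cells was 0.23 over 1019 cells of G and 0.28 over 1826 of GPH, against -0.19 over 106 of control and -0.20 over 189 of PH. Zeb1 did not go with Vim: it was at 0.0858 and 0.0662 at both ends in G, and at 0.138 and 0.0625 in GPH. GPH against G in keratin-rich cells gave Krt7 2.29-fold and Cdh1 1.62-fold (1.59 to 1.66) higher, 2 of 6 measured members where 16.9% of genes were, and none lower, where 2.33% were. All measured genes were shifted by 0.24 on the log2 scale toward GPH, and relative to that shift Cdh1 did not pass. Vim lay at the threshold, at 1.50-fold (1.48 to 1.51). The keratins chose these cells, so their own ratios are a description.

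The doublet check gave these numbers. Scrublet, a program that scores barcodes by likeness to simulated doublets, called 0, 1, 0 and 7 barcodes by its own threshold and thus did not work, so the barcodes with the highest scores were removed at an assumed 0.8% per 1000 barcodes. At that rate, doublets of a keratin-rich with a Vim-only cell would number 6.61, 14.5, 18.2 and 35.7 in control, PH, G and GPH. Keratin-rich cells with Vim of 10 or more numbered 111, 188, 777 and 1686 before the removal and 106, 180, 695 and 1582 after it. They were deeper than keratin-only cells, at a median of 31618 against 27261 UMIs in G and 46445 against 32816 in GPH. At or under the keratin-only median lay 255 (36.7%) of those of G and 350 (22.1%) of those of GPH.

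Cells extreme for both, with 50 or more per 10000 of keratin and of Vim, were few: 30, 65, 14 and 56 after the removal and 33, 68, 21 and 66 before it. The expected doublets of G and GPH, 18.2 and 35.7, count any pair of a keratin-rich and a Vim-only cell. How many of them would reach a Vim level of 50 was not computed, so they give no expected number for these cells. The 56 cells of GPH held Cdh1 at 5.31 per 10000, Zeb2 at 0.0182, S100a4 at 0.853 and Vim at 54.8. Cdh1 was read in 50 of them, so that by genes other than Vim they read like other keratin-rich cells. The 14 cells of G held S100a4 at 16.0, Cdh1 at 2.52 and Tff1 at 0.0542. The 30 cells of control held S100a4 at 81.8 and Cdh1 in 1 cell.

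Cells that read Cdh1 and a Zeb gene together were counted at 5000 UMIs. In G 4.23% of cells with Cdh1 held a Zeb1 or Zeb2 UMI, against 34.5% of cells without, and in GPH 7.06% against 48.4%. Among control cells the shares were 40.98% and 33.8% and in PH 30.5% and 38.5%, on 61 and 105 cells with Cdh1. Within keratin-rich cells alone the shares lay closer, at 3.69% and 6.43% in G and 4.66% and 6.03% in GPH. Cells with both numbered 25 of 1019 in G (2.45%, 1.59 to 3.60) and 72 of 1826 in GPH (3.94%, 3.10 to 4.94). Within keratin-mid cells they were 4.44% and 29.4% in G, on 90 cells with Cdh1, and 31.1% and 47.2% in GPH, on 45. The contrast in G was thus also present among keratin-mid cells.

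Other genes of the axis were read from 6 lists in keratin-only against Vim-only cells of the same library, among genes with 20 CPM in either class. A gene read only in the class where it is high had to differ, so these counts describe the classes. In G 23.6% of 5146 genes were 1.5-fold higher in keratin-only cells and 25.1% lower, and in GPH 26.2% and 25.2% of 5970. Of 29 genes of epithelial junctions and identity, 13 were measured in G and 19 in GPH, and each was higher, with a median log2 ratio of 5.43 and 6.57 against -0.08 and -0.06 for all genes. In GPH they ran from Jup, a desmosome and adherens junction protein, at 2.83-fold (2.64 to 3.05), to the tight junction proteins Cldn3 and Cldn4, with 318 and 367 UMIs against 0. The 40 Epcam cells of GPH held 318 Cldn3 and 365 Cldn4 UMIs, and all other cells of GPH these genes at 0.000509 and 0.000848 per 10000, so both were read almost wholly in those 40 cells. Of 15 epithelial regulators 7 were measured in G and 8 in GPH, each higher. In GPH Elf3, an epithelial transcription factor, was 82.1-fold and Gata6, a factor of pancreatic and gut epithelium, 1.63-fold higher.

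Mesenchymal genes were lower in the same cells. Of 26 mesenchymal effectors 16 were measured in G and 15 in GPH, each lower. In GPH Tgfbi, a matrix protein, was 96.2-fold lower. Of 12 mesenchymal regulators, 7 of 7 measured were lower in G and 7 of 8 in GPH, where Prrx2, a homeobox factor, was 136-fold lower and Yap1, a Hippo pathway coactivator, at a ratio of 1.05 (0.892 to 1.23). Of 10 genes of TGF-beta signalling 6 of 7 were lower in G and 6 of 9 in GPH. Inhba, a subunit of activin, was 121-fold lower in GPH, and Smad3, a signal transducer, at a ratio of 1.13 (0.959 to 1.33). Of 7 other keratins, Krt20, a keratin of gut epithelium, was 94.97-fold higher in GPH.

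The same lists were read between libraries within Vim-only cells. In GPH against control 5 of 7 measured mesenchymal regulators were higher, Prrx1, Tcf4, Hmga2, Runx2 and Tead1, with a median log2 ratio of 0.72 against 0.14 for all 4528 genes, of which 22.2% were higher and 10.5% lower. Of 16 mesenchymal effectors 6 were higher, among them Fn1, Col3a1 and Acta2, and 3 lower (S100a4, Col1a2 and Lgals1). Fn1 was at 15.9 per 10000 in GPH and 8.37 in control, and S100a4 at 28.0 and 51.1. Of 7 measured genes of TGF-beta signalling 5 were higher in GPH (Tgfb2, Tgfbr1, Tgfbr2, Smad7 and Inhba). The 2 epithelial regulators measured, Klf5 and Gata6, were also higher in GPH, and neither of 2 measured junction genes passed. In G against control, where 5.83% of genes were higher and 8.86% lower, Hmga2 of the 7 regulators was higher, and 2 of the 16 effectors, Cd44 and Itga5. There Klf5 and Gata6, and Tgfb2 and Inhba of the 7 TGF-beta genes, were higher, and Jup was lower. In PH against control 14.3% of genes passed either way. There 1 of 7 mesenchymal regulators (Hmga2) and 1 of 2 epithelial regulators (Gata6) were higher. Of 16 effectors 1 was higher (Cd44) and 2 lower (Col1a1 and Acta2). None of 7 genes of TGF-beta signalling and none of 2 junction genes passed. These counts do not set the lists apart from all genes.

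Genes whose level most resembled that of the members were ranked by Pearson correlation over cells, on log values at 5000 UMIs, among 5982 genes for the keratin sum. The highest for the keratin sum were Gsta4 (0.77 in G and 0.83 in GPH), a glutathione transferase, Wfdc2 (0.76 and 0.79), a secreted protease inhibitor, Lgals4 (0.76 and 0.85) and Lgals2 (0.73 and 0.75), both galectins, and Cystm1 (0.73 and 0.76). For Vim they were S100a10, Lmna, S100a4, Txn1 and Lgals3, at 0.18 to 0.57 over the 4 libraries. S100a10, a calcium-binding protein, was at 0.24, 0.28, 0.43 and 0.39 in control, PH, G and GPH. The cells of a library share depth and the 2 clouds, so these values describe likeness over all cells of that library.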

How the data were processed

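Single-cell RNA was measured in 4 10x Genomics libraries, deposited by the authors as matrices of raw UMI counts per gene and barcode. The submitters' processing notes name Cell Ranger 6.1 and mm10, and the file headers Cell Ranger 7.0.1. All matrix columns were assigned to a library. Doublets were scored with Scrublet in scanpy 1.11.5; other steps used scipy 1.17.1 and pandas 2.3.3 under Python 3.11.15. Cells had at least 5000 UMIs, 300 genes, at most 20% mitochondrial UMIs and 0 Ptprc UMIs. Scrublet ran on barcodes of at least 500 UMIs, and the top scores were removed at 0.8% per 1000 scored barcodes. Levels are summed UMIs over summed totals. Classes and shares of cells used cells thinned to 5000 UMIs (seed 1), and free RNA 2000 UMIs. T cells held at least 2 Ptprc UMIs and 1 UMI of Cd3e, Cd3d, Cd3g or Trac. A level of 0 allows 3 counts. Ratio scripts were tested on simulated data.

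The members and lists were chosen with earlier results of these data known, and the bands at 50 per 10000 and Epcam cells after the distributions were seen. Besides the members, the text names the ends of each list in GPH, list members past 1.5-fold between Vim-only cells (chosen after their values were seen), the 5 genes most like the keratin sum and Vim, and genes stated to be chosen after their values were seen (S100a4, Fn1, Dcn, Sparc, Col1a1, Cdkn2a, Tff1, Lyz2, Xist, Reg3b and Fabp1). No batch label exists. Settings for depth, thresholds, scaling, doublet removal and mitochondrial share were varied. A list gene and a promoter sequence are not reported here.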

Additional observations from a re-analysis of the deposited data

How the results depend on the processing

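With 1 library a group no library could be left out, and no paired analysis was possible because each group has 1 library. The share of cells high for both was computed 56 times under other settings, and 28 values stayed within their main interval. In the order control, PH, G and GPH it was 70.6%, 73.4%, 67.6% and 71.6% at 5 per 10000, 20.5%, 25.0%, 17.6% and 29.6% at 20 per 10000, 60.6%, 64.0%, 57.5% and 63.0% in cells of at least 10000 UMIs, and 2.97%, 3.52%, 24.2% and 45.1% with Krt19 alone. With keratin at 50 per 10000, added after seeing the data, it was 1.46%, 1.91%, 23.8% and 45.4%. From 2000 UMIs it was 54.1% in PH and 39.2% in G, with no mitochondrial limit 49.5% in GPH, without 7 leukocyte, endothelial and Xist genes 51.3% in G, with Krt8 and Krt18 alone 46.8% in control and 50.9% in PH, and without thinning 47.9% and 53.9%.

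Of 144 recomputed counts of members past 1.5-fold, 123 stayed within 1.5 times the main count. Scaling to the median gave 4 lower in GPH against control, 1 lower in G against control within Vim-only cells, and 0 higher with 1 lower in GPH against G there. With 5 CPM, GPH against G had 1 lower. Within Vim-only cells, G against control had 1 lower with no mitochondrial limit, without the 7 genes and at 20 per 10000, and 1 higher from 2000 UMIs, with equal weights and at 5 per 10000. GPH against G there had 1 higher from 2000 UMIs, from 10000 UMIs, at 5 and at 20 per 10000, and 1 lower without the 7 genes and at 20 per 10000. PH against control there had 1 higher from 10000 UMIs and at 5 per 10000. With each cell weighted equally, G against control and GPH against control over all cells had 1 lower each. Of 348 recomputed member ratios past 1.5-fold, 347 kept their sign and 308 stayed past it. The Zeb2 ratio of GPH to control turned with equal weights (0.29 on the log2 scale), and the Zeb1 ratio along keratin in GPH turned among cells of 10000 to 15000 UMIs (-0.26). The cause was not tested. With all cells thinned to the same number of UMIs, 0.839% and 1.12% of control and PH cells held a Cdh1 UMI. The shares in G and GPH were 26.7% and 46.8% at that same depth. How far depth limits the reading of Epcam and Krt7 in control and PH was not tested.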
